A study of Mus musculus with 18 samples.

Results

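Mouse embryonic stem (ES) cells of 2 reporter lines were sorted for absence of green fluorescent protein (GFP), and the sorted cells were compared between the lines. These were 4 samples, 2 of the Stella-GFP line and 2 of the Dazl-GFP line, out of 18 in the series, which has 9 groups of 2. They were taken by their labels and not by any measured value. Each sample was hybridised alone to a one-colour Agilent whole-genome mouse array.

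Both lines were labelled male, of mixed C57BL/6 and 129SV background, and were grown undifferentiated in LIF medium on feeder fibroblasts. LIF, leukaemia inhibitory factor, is the cytokine that sustains mouse ES cells in culture. The Stella-GFP line carries GFP in a bacterial artificial chromosome with the Stella gene, named Dppa3 in mouse, and the Dazl-GFP line carries GFP as a reporter for Dazl, a germ cell RNA-binding protein. Both GFP-negative groups are therefore ES cells in which the reporter was off or below the gate, and no further treatment separated them. Each reporter is represented by 1 line, so an effect of the reporter and of the line cannot be told apart, and no label says that the 2 arrays of a group came from separate cultures. The p-values then measure the spread between arrays, which may be technical, and because 1 fit holds all 9 groups they also carry the spread within groups outside the comparison. The GFP-negative gate can also hold GFP-negative feeder cells.

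ES cells in LIF medium are a mixture. Most cells hold a naive pluripotent state, kept by transcription factors such as Klf2, Klf4, Esrrb and Zfp42, while others move towards the epiblast or, in response to WNT, NODAL and FGF ligands, towards the primitive streak, the structure of the gastrulating embryo from which mesoderm and definitive endoderm arise. Brachyury (T), Mixl1, Mesp1, Eomes and Gsc mark the streak, and Sox17, Foxa2, Gata6 and Cer1 mark endoderm. A rare ES cell state that resembles the embryo at the stage of 2 cells expresses Zscan4c. In a bulk sample a lower level can come from fewer cells of a type or from less RNA per cell, and these cannot be told apart.

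A gene's level is given here as log2 of its background-subtracted signal over the 75th percentile of the array, so that 0 is the 75th percentile and each unit is a doubling. A difference is the Stella line minus the Dazl line, with the standard error of the fit and n = 2 arrays per line throughout. All 10 ES cell markers that were checked, Pou5f1 among them, were well above background on all 4 arrays. The 75th percentile signal was 153 and 130 on the Stella arrays and 121 and 166 on the Dazl arrays, and 51.9% to 60.0% of spots were well above background. Across the 18876 genes tested, the 2 Stella arrays stood further apart (median absolute difference 0.31) than the 2 Dazl arrays (0.13).

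The threshold for a call was an adjusted p (Benjamini-Hochberg) under 0.05 in limma's moderated test over all 18 arrays. By this rule 452 genes (2.39% of those tested) differed between the GFP-negative cells of the lines, 214 higher in the Stella line (1.13%) and 238 lower (1.26%). Of the 12 largest called differences of named genes on the lower side, 6 were genes of the streak or endoderm lists (Cer1, Mixl1, Mesp1, Gata6, T and Evx1). These lists hold 23 and 19 of the 18876 genes tested. Genes of chromosome 8 made up 60 of the 214 on the higher side, and 831 of the 15825 tested genes that had a chromosome. Centring the arrays on their median instead moved the difference of all genes by 0.20 and gave 191 higher and 133 lower calls, and a normexp background correction gave 24 and 59. The counts were 78 and 173 without Stella replicate 1, 32 and 85 without Stella replicate 2, 16 and 39 without Dazl replicate 1, and 18 and 39 without Dazl replicate 2. Arrays outside the comparison moved the counts the other way, to 681 and 559 without replicate 1 of the E13.5 germ cells and to 1749 and 1188 on the 14 arrays of cultured cells, which leave out all germ cells from the animal. In each of the 4 fits without a negative array the lone array of a line was assumed to vary like the other groups.

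Replicate 1 of both lines lay on 1 slide, whereas replicate 2 of the lines lay on 2 slides scanned together. With slide as a block the number of calls was 98, 29 higher and 69 lower in the Stella line. Of 55 named genes with a call, 21 kept it with the slide as a block. The arrays of the lines did not overlap for any of the 452 called genes, so their direction within the shared slide was fixed by the call and is no separate evidence.

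The promoters of 3 genes that were high in the Dazl line are shown first, because they carry short sequences recognised by factors of the streak programme. Each is the 250 bases before the gene's start in the RefSeq table of build GRCm38.p6, read from 5′ to 3′ on the gene's strand. Capitals mark the match: GGTGTNA, the core bound by T-box proteins such as Brachyury itself, in T, and CTTTGAT, bound by the TCF/LEF proteins that act for WNT, in Mesp1 and Sp5. T lies on chr17:8434173-8434422 on the plus strand, Mesp1 on chr7:79793591-79793840 on the minus strand and Sp5 on chr2:70474673-70474922 on the plus strand.
T: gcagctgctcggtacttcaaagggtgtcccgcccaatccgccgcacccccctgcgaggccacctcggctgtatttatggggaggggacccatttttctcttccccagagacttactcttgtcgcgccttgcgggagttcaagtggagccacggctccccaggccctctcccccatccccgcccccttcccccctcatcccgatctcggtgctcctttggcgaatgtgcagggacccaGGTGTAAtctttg
Mesp1: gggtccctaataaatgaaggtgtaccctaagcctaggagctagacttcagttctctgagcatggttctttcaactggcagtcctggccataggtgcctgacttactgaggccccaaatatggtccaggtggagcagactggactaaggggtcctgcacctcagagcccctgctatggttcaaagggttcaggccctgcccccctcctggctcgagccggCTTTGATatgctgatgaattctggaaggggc
Sp5: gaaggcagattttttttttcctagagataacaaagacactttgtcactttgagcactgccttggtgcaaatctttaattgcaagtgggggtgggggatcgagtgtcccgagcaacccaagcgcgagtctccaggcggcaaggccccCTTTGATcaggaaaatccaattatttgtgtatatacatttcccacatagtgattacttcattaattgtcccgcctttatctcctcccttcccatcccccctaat
The match in T lay 13 to 7 bases before the start, that in Mesp1 31 to 25 bases before it, and that in Sp5 104 to 98 bases before it. The motifs were searched on both strands. Of the 14 called genes of the streak, endoderm and WNT lists that were lower in the Stella line, 10 had an entry among the 32851 promoters. CTTTGAT was present in 2 of these 10 and in 3.21% of all promoters, GGTGTNA in 1 of 10 and in 8.61%, and AATCCACA, bound by the NODAL effector FOXH1, in 0 of 10 and in 0.718%. Each promoter shown held 1 match to 1 of these motifs, so none overlapped. A match is a description of these letters and not evidence of binding.

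Genes of the primitive streak and early mesoderm were lower in GFP-negative cells of the Stella line. Of 24 on the array 23 were tested, and 8 of these were called lower, with 0 called higher, where 1.26% of all genes were called lower. All 8 are T, Mixl1, Mesp1, Fgf8, Evx1, Kdr, Flt1 and Pdgfra. The median difference over the 23 genes was -3.07, against 0.01 over all genes tested, and both Stella arrays lay below both Dazl arrays for 19 of the 23, as they did for 25.8% of all genes.

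T, the T-box factor that defines the streak, had levels of -1.15 and -2.94 on the Stella arrays and 2.31 and 2.39 on the Dazl arrays. The groups did not overlap, and the difference was -4.39 ± 0.71 (adjusted p = 0.0104), or 21.0-fold. Mesp1, a factor of nascent cardiac and cranial mesoderm, stood at -3.52 and -3.81 against 1.42 and 1.44, a difference of -5.10 ± 0.58 (adjusted p = 0.00157). Mixl1, a homeobox factor of mesendoderm, was not well above background on either Stella array and stood at -0.26 and -0.30 on the Dazl arrays, which makes it at least 18.6-fold lower in the Stella line (adjusted p = 0.00304). These 3 genes were thus moderate to high in Dazl GFP-negative cells and low or undetected in Stella GFP-negative cells.

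Fgf8, a fibroblast growth factor of the streak, was 2.10 and 1.28 on the Stella arrays against 5.02 and 4.97 on the Dazl arrays, a difference of -3.30 ± 0.35 (adjusted p = 0.00118). Evx1, a homeobox factor of the posterior streak, was -2.65 and -5.36 against 0.31 and 0.28, with only 1 of the Stella arrays above background (-4.30 ± 0.74, adjusted p = 0.0124). Receptor genes of early mesoderm were lower as well. Flt1, a VEGF receptor, was 0.48 and -1.97 against 2.64 and 2.54 (-3.33 ± 0.60, adjusted p = 0.0161). Kdr, the main VEGF receptor, was at least 4.61-fold lower (adjusted p = 0.00369), being not well above background in the Stella line. Pdgfra, a growth factor receptor of paraxial mesoderm, was above background on 1 Stella array and differed by -3.18 ± 0.45 (adjusted p = 0.00526).

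The 2 Stella arrays were not alike for this programme. Replicate 1 was above replicate 2 for 17 of the 23 streak genes, by a median of 0.82, whereas the Dazl arrays differed by a median of -0.01. Over all genes tested, 55.5% were higher on Stella replicate 1. Gsc, a homeobox factor of the anterior streak, was -0.14 and -2.51 against 3.14 and 3.19 and was not called (-4.49 ± 1.30, adjusted p = 0.107). Lhx1, another factor of the anterior mesendoderm, was -0.10 and -3.31 against 2.96 and 2.89 and was not called either (adjusted p = 0.0663), nor was Eomes (-3.35 ± 1.13, adjusted p = 0.169). Without replicate 1 of the E13.5 germ cells all 3 were called, with adjusted p of 0.00586, 0.0191 and 0.0488. Nodal, the ligand upstream of these genes, differed by -0.12 ± 1.01, with levels between 3.32 and 3.51 on all 4 arrays. Gsc, Lhx1, Eomes, Nodal, Pdgfra and Cxcr4 were picked out after their values were seen.

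Leaving out single arrays changed how many streak genes were called. There were 9 without Stella replicate 1, 6 without Stella replicate 2, 4 without Dazl replicate 1 and 3 without Dazl replicate 2, while the median of the list stayed between -3.17 and -2.42. There were 15 without replicate 1 of the E13.5 germ cells and 16 on the 14 arrays of cultured cells. Mixl1, Mesp1 and Fgf8 were called without each of the 4 negative arrays, with adjusted p up to 0.0417, 0.0264 and 0.0226. The adjusted p of T reached 0.0963, that of Evx1 0.106, that of Flt1 0.126, that of Kdr 0.0521 and that of Pdgfra 0.0586.

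**Figure D1:**
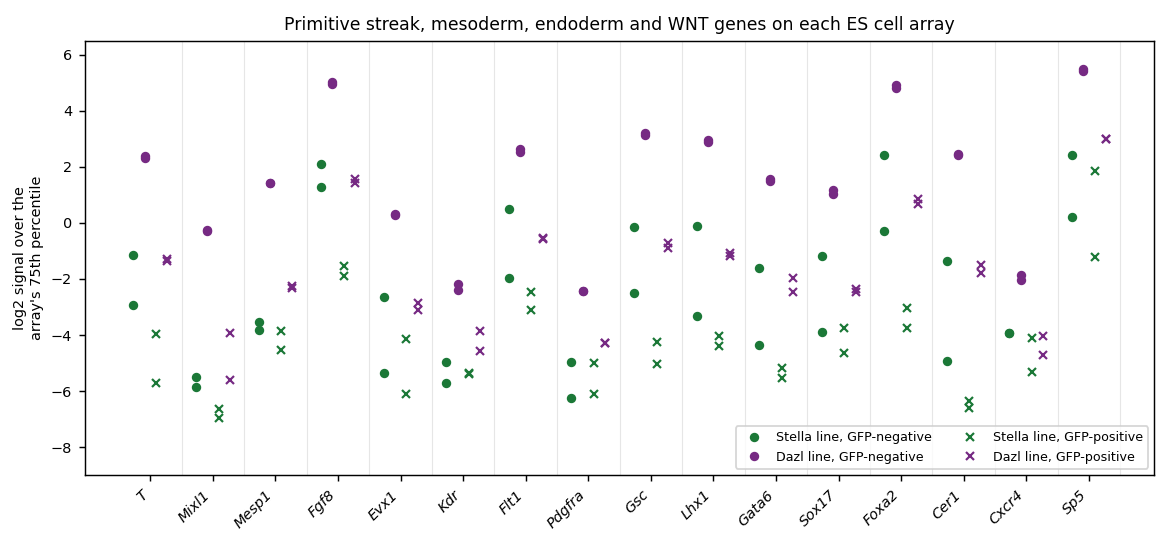
Levels of 16 streak, mesoderm, endoderm and WNT genes on each of the 8 ES cell arrays, as log2 signal over the array's 75th percentile. Each symbol is 1 array, circles are GFP-negative and crosses GFP-positive cells, green the Stella line and purple the Dazl line. The 2 purple circles lie above both green circles for every gene shown, as for T at 2.31 and 2.39 against -1.15 and -2.94. All genes shown but Gsc and Lhx1 were called, and Gsc, Lhx1, Pdgfra and Cxcr4 were picked out after their values were seen. The separation was thus set by the choice of genes and is no separate evidence. Over the whole lists it held for 19 of 23 streak genes and 11 of 19 endoderm genes.

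Endoderm genes that were called were also lower in the Stella line. Of 19 tested, 5 were called lower (1.26% among all genes) and 0 higher, with a median difference of -0.71. Both Stella arrays lay below both Dazl arrays for 11 of the 19 and above them for 3, against 25.8% and 29.3% of all genes. With slide as a block 1 of the 19 was called lower. In GFP-positive cells 5 of the 19 were called lower as well, where 2.44% of all genes were. Foxa2, a pioneer factor of endoderm and axial mesoderm, was 2.43 and -0.30 on the Stella arrays and 4.93 and 4.82 on the Dazl arrays (-3.81 ± 0.68, adjusted p = 0.0161). Gata6, a factor of primitive and definitive endoderm, was -1.62 and -4.36 against 1.56 and 1.51 (-4.52 ± 0.66, adjusted p = 0.00645). A dimmer probe of Gata6 differed by 0.24, unlike its brightest probe, while its dimmest probe differed by -3.24.

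Sox17, the SOX factor of endoderm, was above background on 1 Stella array, at -1.17 and -3.90 against 1.18 and 1.03 (-3.64 ± 0.67, adjusted p = 0.0176). Cer1, a secreted inhibitor of NODAL, BMP and WNT, was likewise above background on 1 Stella array, at -1.35 and -4.93 against 2.44 and 2.44 (-5.58 ± 1.22, adjusted p = 0.0382), so the size of its difference rests partly on a background value. Cxcr4, the chemokine receptor of definitive endoderm, was -3.92 and -3.93 against -2.02 and -1.86 (-1.98 ± 0.44, adjusted p = 0.0413). Afp, a marker of visceral endoderm, was not well above background on any of the 4 arrays. Without single arrays the endoderm calls numbered 4 (without Stella replicate 1), 1 (without Stella replicate 2), 0 (without Dazl replicate 1) and 0 (without Dazl replicate 2), and 7 without replicate 1 of the E13.5 germ cells.

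Genes of the pathways that induce the streak were counted as well, where 1.26% of all genes were called lower. Of 18 WNT pathway genes 2 were called lower, T and Sp5, with a median of -0.95. Sp5, a zinc finger gene that WNT signalling switches on directly, was 2.42 and 0.21 on the Stella arrays and 5.48 and 5.41 on the Dazl arrays (-4.13 ± 0.92, adjusted p = 0.0403). Of 24 NODAL and BMP genes 2 were called lower, Mixl1 and Cer1, with a median of -0.35, and of 18 FGF-ERK genes Fgf8 and Fos were (median -0.47). Cyp26a1, which degrades retinoic acid and is high in the streak, was 1.19 and -1.85 against 4.28 and 4.24 (-4.59 ± 0.92, adjusted p = 0.026). Frzb, a secreted WNT inhibitor, was at least 16.1-fold lower in the Stella line (adjusted p = 0.00654), and Six2, a homeobox gene of mesenchymal progenitors, at least 5.20-fold lower (adjusted p = 0.00118). Leaving out single arrays raised the adjusted p to at most 0.263 for Sp5, 0.171 for Cyp26a1 and 0.0651 for Frzb, while Six2 stayed called (0.0222).

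Immediate-early genes, which growth factors and cell handling switch on within minutes, were another group with called members on the lower side. Of 22 tested, 4 were called lower, where 1.26% of all genes were, and 0 higher, with a median of -0.50. Both Stella arrays lay below both Dazl arrays for 12 of the 22 and above them for 5, against 25.8% and 29.3% of all genes. Fos was -1.78 and -2.38 against 0.30 and 0.56 (-2.51 ± 0.29, adjusted p = 0.00159), and it was called without each of the 4 arrays in turn. Egr2 differed by -2.81 ± 0.55, Atf3 by -1.62 ± 0.32 and Klf6 by -0.89 ± 0.19, with adjusted p of 0.0241, 0.0252 and 0.0308. Their adjusted p reached 0.170, 0.173 and 0.220 when single arrays were left out. Sorting and handling times were not given, and their part in these differences was not tested.

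Markers of feeder fibroblasts were present in all 4 samples, with 24 of 27 tested well above background on every array. Their mean level was -1.06 and -0.24 on the Stella arrays and -0.09 and -0.04 on the Dazl arrays. Both Stella arrays lay below both Dazl arrays for 13 of the 27 and above them for 0, against 25.8% and 29.3% of all genes. The median difference was -0.38. Of the 27, 1 was called lower in the Stella line, where 1.26% of all genes were, and 0 higher. That one was Tagln, a smooth muscle and fibroblast actin-binding protein, at 2.59 and 3.49 against 5.65 and 5.53 (-2.55 ± 0.33, adjusted p = 0.00305). Stella replicate 1 thus had the lowest fibroblast level, below replicate 2 for 25 of the 27 markers, and the higher streak levels of the 2 Stella arrays. The part of feeder cells in the line differences was not tested.

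Markers of other cell types were mostly not called, where 1.26% of all genes were called lower and 1.13% higher. Of 15 trophoblast genes 1 was lower, Krt8, an epithelial keratin (4.88 and 3.19 against 6.18 and 6.00, adjusted p = 0.0392), and Plac1 and Tpbpa were not well above background in either line. The trophoblast list still had a median of -1.07. Both Stella arrays lay below both Dazl arrays for 11 of the 15 and above them for 0, against 25.8% and 29.3% of all genes. This list shares members with the streak list, Eomes among them. Of 12 macrophage genes 1 was lower, Lyz2 (adjusted p = 0.0451), with Adgre1, C1qa and C1qc not above background in either line. Of 12 endothelial genes Kdr and Flt1 were lower and Vwf was higher, while the defining genes Cdh5, Tie1, Emcn and Erg were not above background in either line. No gene of the neural ectoderm list (14) or the erythroid list (10) was called by limma, where 3 and 0 had an unadjusted p under 0.05.

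Genes of naive pluripotency were higher in GFP-negative cells of the Stella line where they were called. Of 19 tested, 3 were called higher (1.13% among all genes) and 0 lower, with a median of 0.90, and both Stella arrays lay above both Dazl arrays for 15 of the 19, as for 29.3% of all genes. Zfp42, also known as Rex1 and a standard marker of the naive state, was 7.38 and 7.15 on the Stella arrays and 5.13 and 4.99 on the Dazl arrays, a difference of 2.20 ± 0.41 (adjusted p = 0.0194) or 4.60-fold. Klf2, a Krüppel-like factor that supports ES cell self-renewal, was 6.60 and 6.87 against 5.17 and 5.29 (1.503 ± 0.21, adjusted p = 0.00501), although its second probe differed by 0.40. Tet2, which oxidises methylated cytosine, was -0.66 and -0.36 against -2.01 and -1.94 (1.46 ± 0.25, adjusted p = 0.0121). In GFP-positive cells 0 of the 19 were called higher and 2 lower, where 0.816% and 2.44% of all genes were. The median of the list there was 0.20. Zfp42, Klf2 and Tet2 differed by 1.36, 0.83 and -0.04 in that gate and were not called.

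The core pluripotency factors did not pass the test. Pou5f1 (Oct4) was 5.84 and 6.11 against 5.54 and 5.47, a difference of 0.47 ± 0.62 (adjusted p = 0.806). The SD of its arrays was 0.19 and 0.05 in the compared groups but 1.88 in the testis germ cells, which enter the same fit. Nanog differed by 0.43 ± 0.49 and Sox2 by 0.85 ± 0.26, with adjusted p of 0.772 and 0.125. On the 14 arrays of cultured cells all 3 were called higher in the Stella line, with adjusted p of 0.0455, 0.0431 and 0.000767. Klf4 was 4.94 and 4.39 against 3.66 and 3.66 (1.003 ± 0.24, adjusted p = 0.0591), and Esrrb, picked out after its value was seen, differed by 1.30 ± 0.31 (adjusted p = 0.0521), its second probe by 0.28. Both were higher on both Stella arrays and missed the threshold, which both passed without replicate 1 of the E13.5 germ cells (adjusted p = 0.0287 and 0.00072). Of 18 genes of general pluripotency only Zfp42 was called, and of 17 genes of the primed epiblast limma called 0, where 4 had an unadjusted p under 0.05 (median -0.27). The naive calls numbered 2 without Stella replicate 1 and 0 without each of the other 3 negative arrays, but 7 without replicate 1 of the E13.5 germ cells and 12, with 1 lower, on the 14 arrays of cultured cells. Without single negative arrays the adjusted p of Zfp42 reached 0.157, that of Klf2 0.0651 and that of Tet2 0.116.

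Zscan4c, the marker of the 2-cell-like state, was -1.57 and -0.61 on the Stella arrays and -4.88 and -4.00 on the Dazl arrays, 1 of which was above background. The difference was 3.35 ± 0.47 (adjusted p = 0.00501), although a dimmer probe of the gene differed by 1.45. Usp17la, a deubiquitinase gene of the same state, was at least 2.88-fold higher (adjusted p = 0.0317). These were the 2 genes called of 9 tested in that list, whose median was 0.35, where 1.13% of all genes were called higher. Without single arrays the adjusted p reached 0.0651 for Zscan4c (without Dazl replicate 1) and 0.199 for Usp17la.

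The gene with the largest rise in the Stella line was Apoc2, the apolipoprotein that activates lipoprotein lipase, at 0.82 and 0.99 against -3.30 and -3.17 (4.14 ± 0.30, adjusted p = 0.000136), or 17.6-fold. Mmrn2, an extracellular matrix protein, was 1.64 and 1.93 against -1.66 and -1.65 (3.44 ± 0.43, adjusted p = 0.00288). Spon1, a secreted matrix protein of the nervous system, was -1.38 and -1.24 against -3.90 and -4.01 (2.65 ± 0.30, adjusted p = 0.00154). These 3 genes were called without each of the 4 arrays in turn, and Spon1 was above background on 1 of the 2 Dazl arrays. So was Msln, a surface glycoprotein, which was 9.13-fold higher by its measured values. Catsperz, a subunit of the sperm calcium channel, was 8.41-fold and Vwf, the von Willebrand factor, 5.47-fold higher. The adjusted p of Msln, Catsperz and Vwf was 0.0312, 0.0195 and 0.0404, and none of these 3 held without each single array (up to 0.217, 0.162 and 0.264). Otoa, Nudt12, Gm428 and Fkbp6 were not well above background in the Dazl line and were at least 2.07-fold, 2.45-fold, 3.03-fold and 2.76-fold higher in the Stella line.

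**Figure D2:**
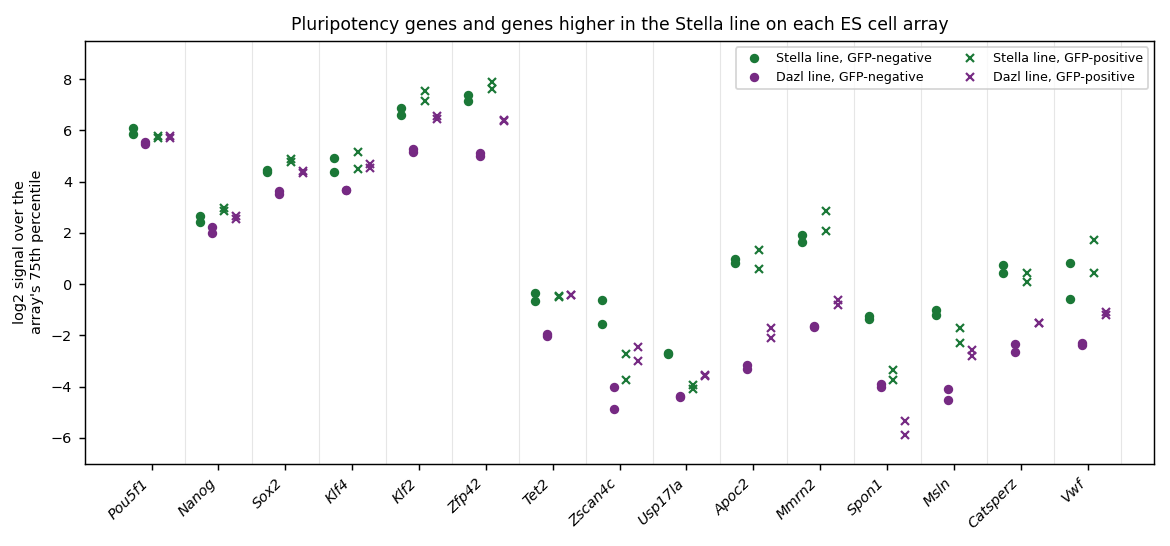
Levels of pluripotency genes and of genes high in the Stella line on each of the 8 ES cell arrays, as log2 signal over the array's 75th percentile, with symbols as circles for GFP-negative and crosses for GFP-positive cells. Pou5f1 lies between 5.47 and 6.11 on the GFP-negative arrays of both lines, whereas Zfp42 lies above 7 in the Stella line and near 5 in the Dazl line, and Apoc2 shows the widest gap.

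At the other end, Trim12a, a TRIM family gene, was 0.93 and 0.77 on the Dazl arrays and not well above background in the Stella line, at least 40.7-fold lower (adjusted p = 0.00501). Prim2, the large subunit of DNA primase, was -3.61 and -3.47 on the Stella arrays against 1.43 and 1.35 on the Dazl arrays (-4.94 ± 0.50, adjusted p = 0.00116), or 30.6-fold. Slpi, a secreted protease inhibitor, was -1.34 and -3.67 against 2.60 and 2.52 (-5.07 ± 0.80, adjusted p = 0.00927). Prim2 was called without each of the 4 arrays, whereas the adjusted p reached 0.0582 for Trim12a and 0.0828 for Slpi.

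Germ cell lists had medians above 0 and few calls. The median difference was 0.54 over 23 genes of gonadal germ cells, 0.53 over 24 of meiosis and 0.46 over 19 of the piRNA pathway, which guards the germline against transposons, and the lists share members. Both Stella arrays lay above both Dazl arrays for 14, 13 and 11 genes of these lists, as for 29.3% of all genes, and 4, 5 and 4 members were not above background in either line. Fkbp6, a co-chaperone of the piRNA pathway and meiosis, Syce2, part of the synaptonemal complex (0.98 ± 0.21, adjusted p = 0.0377), and Piwil1, a piRNA-binding protein near background in both lines, were called higher, with Piwil1 reversing under both a normexp correction and a floor on low signals (-0.13 and -0.023). Each of the 3 lost its call without each of the 4 negative arrays, with adjusted p of up to 0.227, 0.232 and 0.250. Ddx4, the germ cell helicase, differed by 0.79 ± 0.23 (adjusted p = 0.11, and 0.0303 without replicate 1 of the E13.5 germ cells). In GFP-positive cells the medians of the 3 lists were 0.00, 0.03 and -0.06.

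The reporters' own genes did not differ in the negative gate by the test. Dppa3 was 2.60 and 2.63 on the Stella arrays and 2.93 and 3.05 on the Dazl arrays (-0.37 ± 0.35, adjusted p = 0.709), so its transcript was readily measured in cells sorted as Stella-GFP-negative. Dazl was -3.09 and -2.80 against -3.29 and -3.42 (0.41 ± 0.16, adjusted p = 0.246). On the 14 arrays of cultured cells both passed the threshold, Dppa3 as lower and Dazl as higher in the Stella line (adjusted p = 0.0404 and 0.0418). Of 10 genes that neighbour Dazl on chromosome 17, 2 were called higher in the Dazl line, where 1.26% of all genes were. Both Stella arrays lay above both Dazl arrays for 4 of the 10 and below them for 4, with a median of -0.06. The 2 called genes were Rftn1, a lipid raft protein (3.85-fold, adjusted p = 0.00589), and Plcl2, a phospholipase-like protein (2.25-fold, adjusted p = 0.0124). Their adjusted p reached 0.0694 and 0.121 without single arrays. Of 8 neighbours of Dppa3 limma called 0, with 2 at an unadjusted p under 0.05.

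Other lists gave few calls, where 1.13% of all genes were called higher and 1.26% lower. In the cell cycle list of 29, the replication helicase genes Mcm5 (0.87 ± 0.14, adjusted p = 0.0101) and Mcm3 (0.72 ± 0.15, adjusted p = 0.0306) were higher in the Stella line and Cdkn2a, which encodes the p16 and p19 inhibitors, was lower (-1.82 ± 0.23, adjusted p = 0.00304), with 1 Stella array above background. In the list of 30 interferon and MHC genes, the interferon-induced GTPase Gbp2 was lower (-3.25 ± 0.64, adjusted p = 0.0237) and Oasl1, not well above background in the Dazl line, and Stat2 were higher (adjusted p = 0.0354 and 0.0395). Peg3, a paternally expressed zinc finger gene, was the only 1 of 39 imprinted genes called (-1.60 ± 0.29, adjusted p = 0.017). Both Stella arrays lay below both Dazl arrays for 24 of the 39 and above them for 8, against 25.8% and 29.3% of all genes. The median of the imprinted list was -0.30. The Y-linked genes Eif2s3y and Ddx3y were well above background in both lines and differed by -0.80 ± 2.20 and 0.04 ± 1.35, standard errors that carry 1 array outside the comparison. Replicate 1 of the E13.5 germ cells lay at -7.29 for Eif2s3y and -7.45 for Ddx3y, against 3.17 and -1.36 on replicate 2. Eif2s3y was 1.23 and 0.74 on the Stella arrays and 1.68 and 1.90 on the Dazl arrays, and it was called lower in the Stella line without that array (adjusted p = 0.0472) and on the 14 arrays of cultured cells (0.021). Of the called genes in these lists other than Cdkn2a, none kept its call without each single array, with adjusted p of up to 0.104 for Mcm5, 0.210 for Mcm3, 0.165 for Gbp2, 0.250 for Oasl1, 0.254 for Stat2 and 0.140 for Peg3.

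Genes of chromosome 8 were higher in the Stella line as a body. ES cell lines are known to gain whole chromosomes in culture, chromosome 8 among the most frequent, and such gains shift many genes by a small amount. The median difference over the 831 tested genes placed on chromosome 8 by the authors' annotation was 0.49, with quartiles of 0.08 and 0.72, and 77.3% of them lay above 0. Both Stella arrays were above both Dazl arrays for 64.5% of chromosome 8 genes, against 29.3% of all genes and 24.1% to 44.1% on the other autosomes and X. Chromosome 14 came next, with a median of 0.17 over 542 genes, and the medians of the other autosomes and of X lay between -0.06 and 0.05. The chromosome 14 median was not stable to the processing, at 0.019 with normexp and 0.04 without the filter on dim probes, where in GFP-positive cells it was -0.083 with a median of -0.22 over all genes. These medians describe chromosomes and carry no test, and DNA copy number was not measured.

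Of the 214 genes called higher in the Stella line, 200 had a chromosome, and 60 of these were on chromosome 8, which is 7.22% of its tested genes. On the other chromosomes, leaving out 14 and Y, the share was 0.268% to 2.01%, and on chromosome 14 it was 2.03% (11 genes). Only 5 chromosome 8 genes were called lower. The chromosome 8 calls had a median difference of 1.01, against 1.40 for the other genes called higher. Of the named genes with a call, Zfp42, Klf2, Mcm5, Syce2 and Zmat4 lie on chromosome 8. Zmat4, a zinc finger gene not described above, was 5.46-fold higher, with a dimmer probe that differed by -0.66. By the probe tested, all of these called genes exceeded the chromosome's median of 0.49, from 0.87 for Mcm5 to 2.45 for Zmat4. By its second probe Klf2 differed by 0.40, below that median. A call selects large differences, with a median of 1.01 for the chromosome 8 genes called higher. Exceeding 0.49 is therefore no separate evidence.

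**Figure D3:**
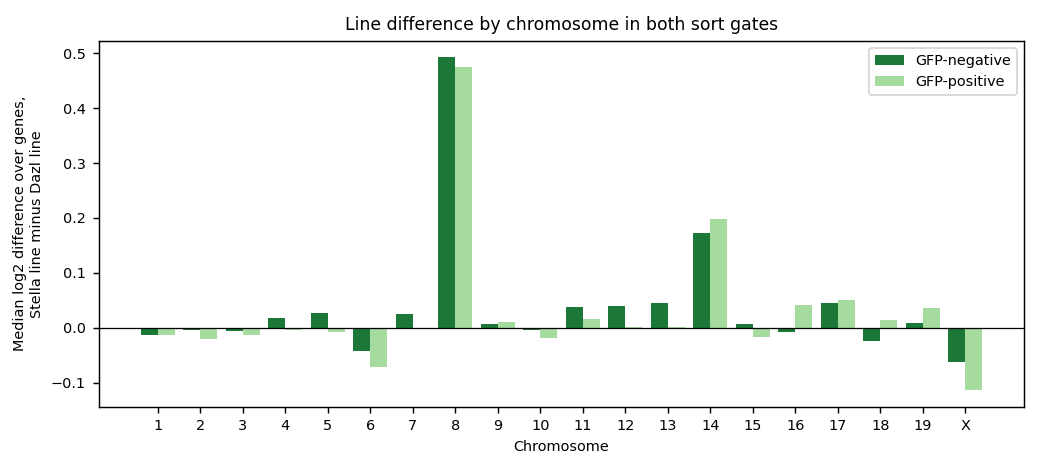
Median log2 difference, Stella line minus Dazl line, over the tested genes of each chromosome except Y, in GFP-negative (dark bars) and GFP-positive cells (light bars). Chromosome 8 stands at 0.49 and 0.47 and chromosome 14 at 0.17 and 0.20, with the other chromosomes near 0.

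The shift of chromosome 8 was similar within replicates, between gates and along the chromosome. It was 0.49 between the replicates 1, which share a slide, and 0.49 between the replicates 2. In GFP-positive cells, sorted from the same lines and hybridised to other arrays, it was 0.47, with 0.42 and 0.52 by replicate. When the genes were put in their RefSeq order and divided into 10 successive groups of equal size, the median of a group ran from 0.41 to 0.61 in GFP-negative cells and from 0.37 to 0.57 in GFP-positive cells, so no group was near 0. Chromosome 14 ran from 0.12 to 0.29 in GFP-negative cells. Restricted to the 663 chromosome 8 genes well above background on all 4 arrays, the median was 0.54.

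**Figure D4:**
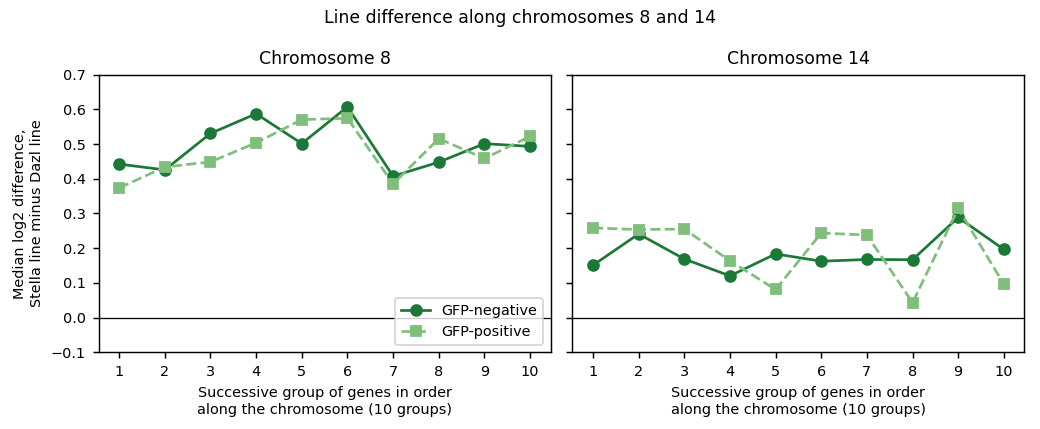
Median log2 difference, Stella line minus Dazl line, in 10 successive groups of the genes of chromosomes 8 and 14 in their order along the chromosome (each point 50 to 77 genes), in GFP-negative (circles) and GFP-positive cells (squares). All points lie above 0, those of chromosome 8 between 0.37 and 0.61.

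The same quantity was taken on each of the 18 arrays as the median deviation of chromosome 8 genes from the mean of the 8 ES arrays, minus that of the autosomes other than 8 and 14. The 4 Stella ES arrays lay at 0.21, 0.24, 0.23 and 0.27, and the 4 Dazl ES arrays at -0.23, -0.24, -0.21 and -0.24. Cells differentiated from the lines kept the sides of their line, at 0.30 and 0.29 for Stella cells at day 7, -0.21 and -0.25 for Dazl cells at day 12, and -0.25 and -0.28 for Dazl cells at day 16. Germ cells from the animal lay on the side of the Dazl line, at -0.22 and -0.11 at E13.5 and -0.18 and -0.18 from juvenile testis. For chromosome 14 the Stella ES arrays lay at 0.06 to 0.10 and the Dazl ES arrays at -0.10 to -0.05, but the Dazl cells at day 12 and 16 lay at 0.01 to 0.05. In the authors' deposited table of group means, the median log2 ratio was 0.70 over chromosome 8 genes, 0.37 over chromosome 14 and 0.22 over all 12502 genes matched.

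**Figure D5:**
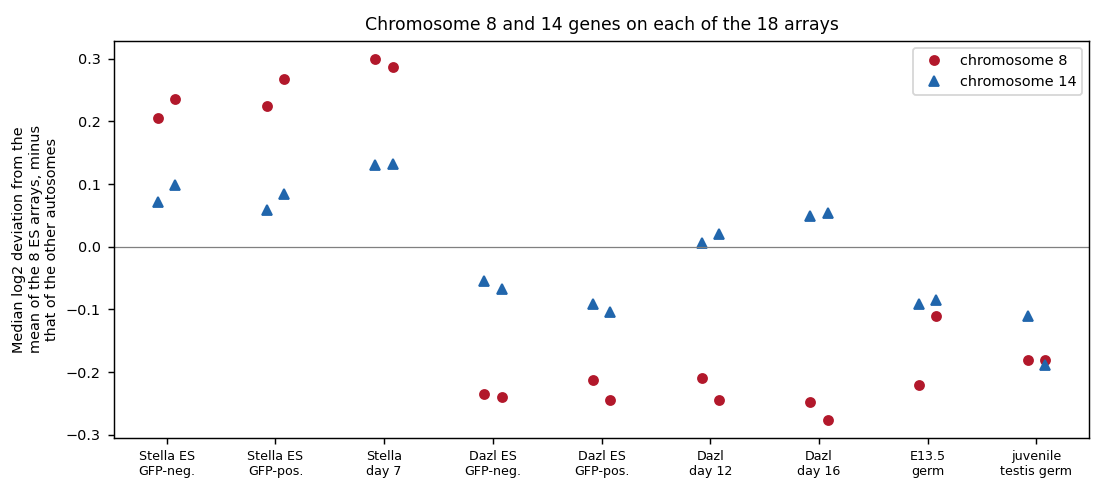
Median log2 deviation of chromosome 8 genes (circles) and chromosome 14 genes (triangles) from the mean of the 8 ES arrays, minus that of the other autosomes, for each of the 18 arrays by group. The 6 arrays of Stella-GFP cells lie between 0.21 and 0.30 for chromosome 8, and the arrays of all other groups lie below 0.

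The GFP-positive cells of the same lines, on 4 other arrays, show which line differences were also present there. In GFP-positive cells 154 genes were higher in the Stella line (0.816%) and 461 lower (2.44%). Of the 214 genes higher in the negative gate, 68 were also called higher in the positive gate, 31.8% of the first list and 44.2% of the second. Of the 238 lower genes 102 were called lower in both, 42.9% and 22.1%. Across all genes the line differences in the 2 gates had a Pearson r of 0.59, a description across genes that are not independent and share lines and slides. Same-numbered GFP-negative and GFP-positive arrays of a line deviated together (r = 0.558 in the Stella and 0.41 in the Dazl line), so the gates are not independent replicates of the line difference.

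Trim12a and Prim2 differed alike in both gates, by -5.91 and -6.88 and by -4.94 and -5.19. Apoc2, Mmrn2 and Spon1 were higher in the Stella line in GFP-positive cells as well, by 2.86, 3.18 and 2.07. The mean level of the 23 streak genes was -2.35 and -3.19 on the Stella and -0.08 and -0.02 on the Dazl arrays of the negative gate, against -3.67 and -4.12 and -2.34 and -2.12 in the positive gate. There T (-3.53 ± 0.71, adjusted p = 0.0205) and Fgf8 (-3.22 ± 0.35, adjusted p = 0.00065) were the 2 of 23 called lower in the Stella line. Mesp1 differed by -1.91 and Mixl1 by -2.05 in the positive gate, neither called. The change of their line difference between gates was -3.19 ± 0.82 (adjusted p = 0.358) and -3.35 ± 0.97 (adjusted p = 0.491), so it did not pass the test. Zscan4c differed by -0.52 in GFP-positive cells, and the change between gates was 3.86 ± 0.66 (adjusted p = 0.0957).

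Only 6 genes (0.0318%) passed the test for a line difference that changed with the gate, 5 of them higher in the negative than in the positive gate. Dazl itself was among them. It was 0.79 and 0.73 on the GFP-positive Dazl arrays and -2.75 and -2.71 on the GFP-positive Stella arrays. Its line difference went from 0.41 in the negative to -3.50 in the positive gate by this probe, and from 0.44 to -0.71 by a dimmer probe of the same transcript. The number of genes passing depended on the arrays fitted and the processing, from 0 with normexp or with a replicate block on the 8 ES arrays to 76 without replicate 1 of the E13.5 germ cells and 326 on the 14 arrays of cultured cells. In the positive gate 12 of 27 fibroblast markers were called lower in the Stella line, where 2.44% of all genes were. The median of the 27 was -1.87, against -0.01 over all genes. The mean level of the 27 markers there was 0.31 and -0.94 on the Stella arrays and 1.54 on both Dazl arrays. The part of feeder cells in the differences between gates was not tested.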

How the data were processed

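RNA from 18 samples in 9 groups of 2 was hybridised to one-colour arrays. Spot signals are intensity values that, per the file headers, the authors obtained by Feature Extraction version 9.1.3.1 of Agilent, background-subtracted and not scaled between arrays. A deposited table of group means, intensity relative to the array median by the authors, served only as an alternative and for chromosome names. No aligner or counting step applies, and DNA was not measured.

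Of 43379 non-control spots, averaged by probe, 41002 probes remained after 172 with outlier flags were left out; 22846 were named through RefSeq accessions, 9721 through symbols, and 8435 kept the files' name. The level is the log2 ratio of a probe's signal to the 75th percentile signal of its array, computed here because the deposited intensity is linear. Probes well above background on both arrays of at least 1 group (28114) were kept, and the one with the highest mean stood for its gene (18876 genes, 15446 named). Slides and scan order came from the headers.

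One limma model (version 3.58.1, R 4.3.3) held all 9 groups, with 9 residual and 2.39 prior degrees of freedom, and tested two-sided. Pooling the spread assumes that the groups vary alike. Where the lower line was not above background on either array, a fold is a bound, against the dimmest probe flagged well above background there. Lists (31) are described by counts and medians, with no test. Genes are named by a rule: a panel of reporter, pluripotency, germ cell and Y-linked genes, the 12 largest called differences in each direction, up to 4 called members of each list per direction, and genes called in the interaction. The members and lists were chosen with earlier results of these data known. The test was tried on simulated data. Alternatives covered scaling, background, filter, probe choice, prior trend, slide and replicate blocks, the arrays fitted, a log2 difference of at least 1, and leaving out arrays. Figures were drawn with matplotlib 3.10.9 (Python 3.11.15). The precision is limited by 2 arrays per group.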

Additional observations from a re-analysis of the deposited data

Results flagged for a closer look

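The line difference changed between the GFP-negative and the GFP-positive gate for 6 genes by limma's interaction test. Dazl had a change of 3.91 ± 0.23 (adjusted p = 3.01e-05), from 0.41 in the negative to -3.50 in the positive gate, whereas a dimmer probe of the same transcript went from 0.44 to -0.71. Angptl7, a secreted angiopoietin-like protein, changed by 3.42 ± 0.41 (adjusted p = 0.0152), from -1.33 to -4.75, and was not well above background in either line in the negative gate. Tslp, an epithelial cytokine, changed by 2.76 ± 0.32 (adjusted p = 0.0152), from -0.90 to -3.65, and was likewise dim in the negative gate. The homeobox gene Hoxd13 changed by 2.59 ± 0.35 (adjusted p = 0.0337), from -0.65 to -3.24. Fcgrt, the neonatal Fc receptor, changed by 1.82 ± 0.23 (adjusted p = 0.0248), from 1.49 to -0.33. The transcript AK045313, which has no gene name in the files, changed by -2.80 ± 0.33 (adjusted p = 0.0152), from -3.17 to -0.36, and was above background only on the Dazl GFP-negative arrays among the 8 ES arrays. With slide as a block 1 of these changes remained, so the other 5 rest on the fit without it. Groups of 2 arrays are too small for a check of single outlying arrays.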

How the results depend on the processing

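Each count is given as genes higher, then lower, in the Stella line, against 214 and 238. Normexp background correction gave 24 and 59, no filter on dim probes 133 higher, slide as a block 29 and 69, centring on the array median 133 lower, the 8 ES arrays alone 349 higher, the 14 arrays of cultured cells 1749 and 1188, and omitting replicate 1 of the E13.5 germ cells 681 and 559. The 4 negative arrays alone, fitted by limma with 2 residual degrees of freedom, gave 0 and 0, with 3703 genes at an unadjusted p under 0.05. Leaving out each negative array in turn gave 16 to 78 higher and 39 to 173 lower. Other settings stayed within 1.5 times of both counts, or of the one not listed. In GFP-positive cells (154 and 461) normexp gave 8 and 63, slide as a block 31 and 151, median centring 259 lower, no filter 84 higher, a log2 difference of at least 1 71 higher, omitting E13.5 replicate 1 445 and 850, the 14 arrays of cultured cells 1369 and 1424, and omitting either negative Dazl array 88 higher. The gate test gave 1 and 0 with slide as a block in place of 5 and 1. In all it gave 0 with normexp or a replicate block on the 8 ES arrays, 1 with median centring or an intensity trend, 3 on the 8 ES arrays or on genes above background on all 4 arrays, 18 with quantile normalization, 38 with low signals floored, 76 without E13.5 replicate 1, 326 on the 14 arrays of cultured cells, and 1 to 13 without each negative array. Normexp left 196 genes at an unadjusted p under 0.05 in that test, and the replicate block on 8 ES arrays 1675. The causes were not tested.

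Same-numbered replicates did not deviate together between the lines (r = 0.0995, and -0.0205 in GFP-positive cells), so the numbers were not taken as pairs across the lines. Between the gates of 1 line they did (r = 0.558 and 0.41), which bears on the gate test. A replicate block gave 210 and 234, and on the 8 ES arrays alone, added after the scan order was seen, 289 and 265. Of 55 named calls, 52 were kept with the replicate block, 23 with normexp, 21 with slide as a block and 13 without each negative array in turn. Piwil1 reversed with normexp (-0.13) and with low signals floored (-0.023). The chromosome 8 median ranged from 0.26 (normexp) to 0.69 (median centring, which moves all genes by 0.20), and from 0.47 to 0.49 without each array. In GFP-positive cells it ranged from 0.22 to 0.75 under the same 2 settings. Signal near background limits 22 of the 214 higher and 58 of the 238 lower genes to bounds, and 7 more in each direction were not above background in either line and have no bound.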
